A study of Mus musculus with 6 samples.

Results

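The libraries labelled mdx were compared with the libraries labelled wt, 2 against 2, over the transcripts of mouse muscle stem cells. Genes listed with a value of at least 10 in at least 2 of these 4 libraries were taken, which gave 13878 of the 14515 genes listed, in 4 of the 6 libraries of the study. Values are read counts that had been scaled between libraries and rounded, called scaled counts here. Just inside that limit stood 214 genes whose second-highest value was 10, such as Sh3d21 with 2 and 2 in wt and 10 and 16 in mdx. Just outside stood 193 genes whose second-highest value was 9, such as Enpp1 with 8 and 3 in wt and 9 and 15 in mdx.

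The wt group is wild type and the mdx group carries the mdx mutation, per the labels, which give no age, sex, strain or number of animals for either. A further group, mdx/Ripk3mKO, entered only the estimate of the spread between libraries. Sample labels name quiescent satellite cells that were sorted and used for library preparation directly. The series text instead names activated wild-type cells kept in a well below a transwell of wt, mdx or mdx/Ripk3mKO cells, so that the genotype would be that of the neighbouring cells. Groups are therefore called by their labels. Both mdx columns carry one header, and library 1 and library 2 of mdx are names in column order. Their values differed from each other by as much as those of the wt libraries, as given below. The labels do not say whether the 2 libraries of one label are 2 animals, 2 cultures or 2 preparations of one, so the p-values given rest on a spread that may be technical.

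Satellite cells are the stem cells of skeletal muscle. Once activated they divide as myoblasts under the transcription factors Myod1 and Myf5, leave the cell cycle with the help of CDK inhibitors, and fuse into myotubes under Myog and Mef2 factors. Myotubes then build sarcomeres, the contractile units of myosin thick filaments and actin thin filaments joined at Z-discs, and the calcium stores that trigger contraction. Embryonic and neonatal myosins come first and adult isoforms later. The mdx mouse lacks full-length dystrophin, the protein that links this machinery to the matrix, and its muscle goes through rounds of degeneration and repair.

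Scaled counts summed to between 20611974 and 21037153 per library, and the divisors used to scale them were estimated at 0.871 to 0.955 in the 4 libraries compared and at 1.2 and 1.205 in the mdx/Ripk3mKO libraries. A gene listed at 0 could still have up to 3 counts, or 3.14 to 3.44 scaled counts in the libraries compared, for counting error only. All 4 libraries held differentiating muscle cells as well as stem cells: Myog was at 35263 and 29747 in wt and 34088 and 26795 in mdx, and the satellite cell factor Pax7 was at 1817 and 1967 in wt and 1811 and 2119 in mdx. The 10 satellite cell and myoblast markers summed to 171444 to 182285 in wt and 164685 to 178341 in mdx, which overlap. None of the 10 neutrophil, 14 lymphocyte or 8 erythroid markers was listed. Of 16 macrophage markers 5 were listed, summing to 60 to 78 in wt and 62 to 76 in mdx, without Ptprc, Adgre1 or Csf1r. Of 12 endothelial markers 7 were listed, at 96 to 98 in wt and 91 to 121 in mdx. Library 1 of mdx/Ripk3mKO stood apart in the inactive-X transcript Xist, at 6918 against 164 to 666 in the 4 libraries compared.

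The proximal promoters of genes on both sides of the comparison are shown. They are the 250 bases before the transcript start, from the RefSeq promoter table of GRCm38.p6, written along the gene's strand. Capitals mark E-boxes, the CANNTG motif that Myod1 and Myog bind. Selp and Cspg4 are the lower genes with the smallest p, and Myh8 and Actn2 were added after their values were seen, as contractile genes with large differences. None of these genes passed in the fit of all 6 libraries described below. No window was available for Cdkn1c, which did pass, or for Egr3, so neither is shown.
Selp, chr1:164115014-164115263, plus strand: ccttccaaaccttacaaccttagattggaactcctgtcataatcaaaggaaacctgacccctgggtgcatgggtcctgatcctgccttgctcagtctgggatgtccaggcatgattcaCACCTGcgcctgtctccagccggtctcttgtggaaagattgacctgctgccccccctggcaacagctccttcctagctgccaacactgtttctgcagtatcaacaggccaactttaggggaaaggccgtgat
Cspg4, chr9:56864854-56865103, plus strand: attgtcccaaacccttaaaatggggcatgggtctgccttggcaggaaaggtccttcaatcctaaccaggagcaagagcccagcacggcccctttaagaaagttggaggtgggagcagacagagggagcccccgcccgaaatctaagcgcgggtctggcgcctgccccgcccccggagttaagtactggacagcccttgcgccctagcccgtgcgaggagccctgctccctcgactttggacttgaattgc
Myh8, chr11:67276874-67277123, plus strand: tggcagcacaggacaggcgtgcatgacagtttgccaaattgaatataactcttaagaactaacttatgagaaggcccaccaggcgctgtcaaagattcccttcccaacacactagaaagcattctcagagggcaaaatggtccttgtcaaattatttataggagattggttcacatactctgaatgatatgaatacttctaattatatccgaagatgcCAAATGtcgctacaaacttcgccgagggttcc
Actn2, chr13:12340733-12340982, minus strand: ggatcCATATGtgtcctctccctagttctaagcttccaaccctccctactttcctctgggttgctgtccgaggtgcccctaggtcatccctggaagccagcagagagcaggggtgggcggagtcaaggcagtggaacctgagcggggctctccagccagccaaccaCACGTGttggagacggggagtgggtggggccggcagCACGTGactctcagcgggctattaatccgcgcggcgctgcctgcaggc

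The window of Actn2 held 3 E-boxes, that of Myh8 held 1 and that of Selp 1, while none was found in that of Cspg4. Myh8 alone of the 4 held the TATAAA motif. A looser pattern of the CArG type, CC and GG with any 6 bases between them, was found 5 times before Cspg4, and 1 time each before Actn2 and Selp. All motifs were searched on both strands. E-boxes are common: 56.5% of the 9999 promoters of genes tested held one. Promoter windows were available for 64 of the 93 genes called higher in mdx in the 4-library fit described below, and 84.4% of those held an E-box. TATAAA was found in 6.31% of all windows and in 15.6% of these 64, and the CArG-type pattern in 81.4% and 73.4%. The median GC content was 60.0% over all windows and 56.0% over the 64. These shares describe letters in a window and not binding.

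The 4 libraries differed little by group. Of the 13878 genes, 6785 were higher in mdx and 7086 lower, with a median log2 difference of -0.0026. The median absolute difference between the group means was 0.08 on the log2(scaled count + 1) scale, against 0.104 between the wt libraries and 0.103 between the mdx libraries, and a mean of 2 libraries varies less than a single library. In 25.0% of genes the group means lay farther apart than the libraries within either group. Both mdx libraries were above both wt libraries in 2442 genes, or 17.6%, and below both in 2558, or 18.4%.

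**Figure D1:**
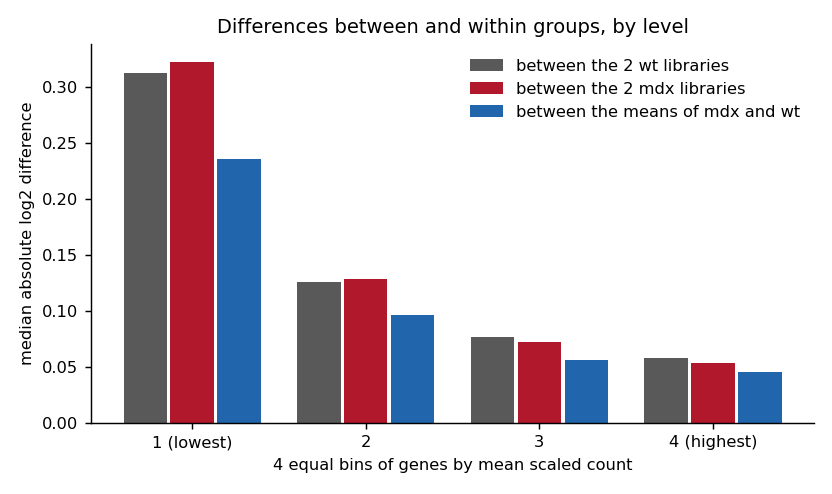
Median absolute log2 difference of genes in 4 equal bins by mean scaled count (x axis), between the 2 wt libraries (grey), between the 2 mdx libraries (red) and between the group means (blue). All 3 fall with the level, and in each bin the groups' means lie closer together than single libraries of a group, from 0.235 against 0.312 and 0.322 in the lowest bin to 0.045 against 0.058 and 0.053 in the highest.

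Larger differences lay mostly on the higher side. Among the 10023 genes with a mean of at least 100 in the 4 libraries, 89 were higher in mdx by over 0.5 (log2) without overlap between the groups, and 9 were lower by as much. Past a difference of 1 there were 9 higher and 2 lower. The extreme low value, that of Gm10800, came from a single wt library: it was at 10 and 643 in wt and at 8 and 1 in mdx.

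Cdkn1c was the gene past the threshold in the fit of all 6 libraries (limma, Benjamini-Hochberg adjusted p under 0.05), 1 of 13878 genes or 0.00721%. It encodes p57, an imprinted CDK inhibitor that holds differentiating myoblasts out of the cell cycle. Cdkn1c (ENSMUSG00000037664, mm10 chromosome 7, 143458339 to 143461050) was at 300 and 272 in wt and at 486 and 488 in mdx. Both mdx libraries stood well above both wt libraries, and the mdx libraries lay within a few counts of each other. Cdkn1c rose by 0.77 ± 0.10 (log2, standard error, 95% interval 0.56 to 0.97, limma adjusted p = 0.0197). In the mdx/Ripk3mKO libraries it was at 230 and 236. This call was lost without a mean-variance trend (limma adjusted p = 0.417), without robust fitting (0.0813) and when any of the wt or mdx libraries was left out. Unadjusted p-values under 0.05 were found for 476 genes higher in mdx, or 3.43%, and for 421 lower, or 3.03%.

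No other member of its family passed (0.00721% of all genes did). Of 22 tested CDK inhibitors, D cyclins and Rb family genes, 10 were higher and 12 lower, with a median of -0.006. Cdkn1a, the p21 inhibitor induced on differentiation, was at 18611 and 17181 in wt and 18625 and 16916 in mdx, so the groups overlapped. The D cyclin of differentiating muscle, Ccnd3, was at 6674 and 6070 in wt and 5947 and 5472 in mdx, a difference of -0.16 ± 0.06 (limma adjusted p = 0.657). The S-phase factor E2f2 was at 1632 and 1403 in wt and 1344 and 1326 in mdx, lower without overlap (-0.18 ± 0.07, and -0.072 without wt library 1).

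**Figure D2:**
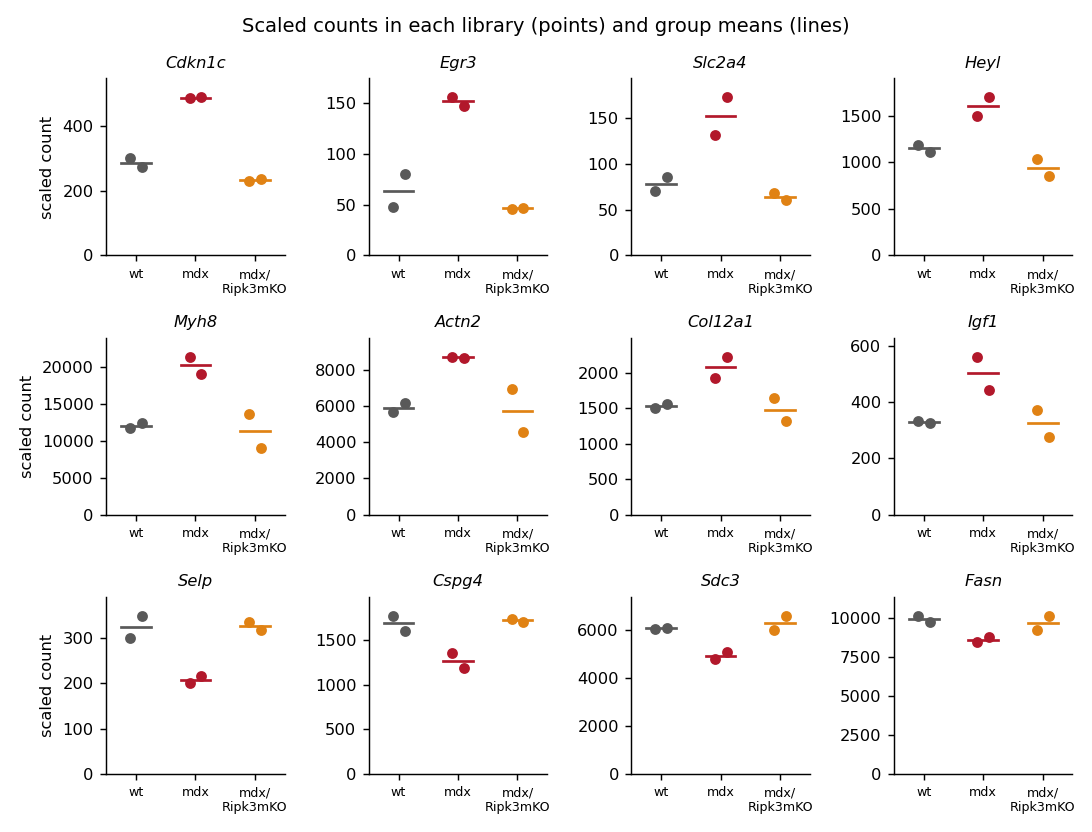
Scaled counts (y axis, from 0) of 12 genes in each library (points) with the group mean (line), for wt (grey), mdx (red) and mdx/Ripk3mKO (orange). The first 8 genes are higher in both mdx libraries than in both wt libraries and the last 4 lower, with Cdkn1c at 486 and 488 in mdx against 300 and 272 in wt. Every one of the 12 was selected for its difference or its list.

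The calls depend on whether the mdx/Ripk3mKO libraries help to set the spread. Fitted without the mdx/Ripk3mKO libraries, with 2 residual degrees of freedom in place of 3, the comparison called 93 genes higher in mdx (0.67% of those tested) and 10 lower (0.0721%). Fold differences are the same in both fits. All 103 genes had no overlap between the groups, against 17.6% of all genes with mdx above and 18.4% with mdx below. Their selection by these same 4 libraries favours such a separation. For the 93 higher genes the median difference between the libraries of a group was 0.088 in wt and 0.087 in mdx, but 0.511 between the mdx/Ripk3mKO libraries. Over all genes these medians were 0.104, 0.103 and 0.107. The 4-library fit favours genes with small differences within wt and mdx, and mdx/Ripk3mKO had no part in that selection. Library 1 of that group was above library 2 in 91 of the 93, against 47.8% of all genes tested. Leaving out mdx/Ripk3mKO library 1 or library 2 from the 6 gave 102 or 103 calls. The 4-library count itself fell to 0 without wt library 1, to 49 without wt library 2 and to 0 without a mean-variance trend. It is given below as a description beside each list, and words such as rose are kept for the 6-library fit.

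**Figure D3:**
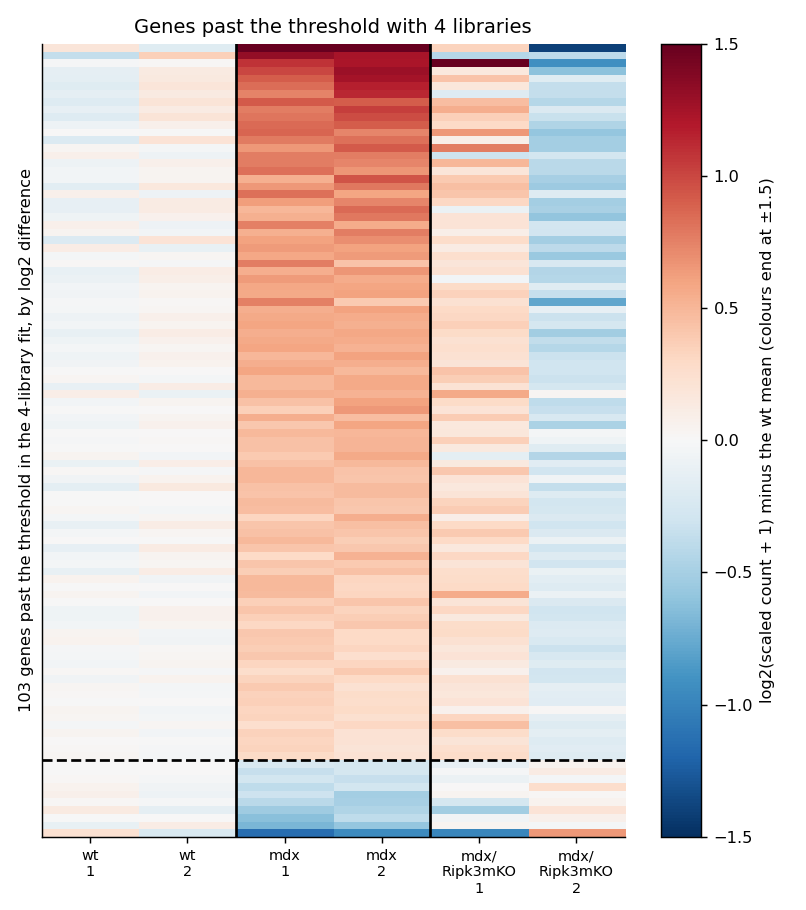
Heat map of the 103 genes past the threshold with 4 libraries (rows, ordered by difference) in each of the 6 libraries (columns), coloured by log2(scaled count + 1) minus the wt mean. Genes above the dashed line are higher in both mdx libraries. In the mdx/Ripk3mKO libraries the same genes are mostly raised in library 1 and lowered in library 2.

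**Figure D4:**
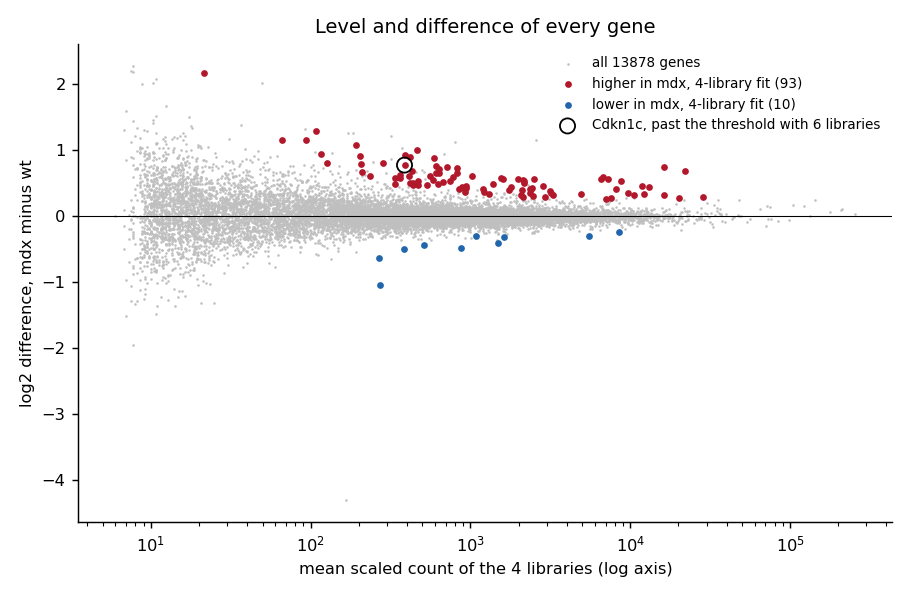
Mean scaled count of the 4 libraries (x axis, log scale) against the log2 difference of mdx minus wt (y axis) for 13878 genes. Red and blue points are the 93 higher and 10 lower genes of the 4-library fit, and the ring marks Cdkn1c. The genes called lie at the edge of the cloud from about its middle levels upward, and more of them on the higher side.

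Contractile and calcium-handling genes made up 26 of the 93 higher genes of the 4-library fit, which called 0.67% of all genes higher. Of 87 tested genes in 4 lists (myosins, thin filament, Z-disc and excitation-contraction coupling), 75 were higher in mdx and 12 lower, with a median of 0.24 against -0.0026 for all genes. Both mdx libraries were above both wt libraries in 55 of the 87, or 63.2%, against 17.6% of all genes, and below both in 4, against 18.4% of all genes. In the 4-library fit none was called lower, close to the share of all genes, 0.0721%. In the 6-library fit none passed (0.00721% of all genes), with 17 higher at an unadjusted p under 0.05 (3.43% of all genes). Without mdx library 1 the number higher was 69 and the median 0.19, and without mdx library 2 it was 78 and 0.32. Their scaled counts summed to 874376 and 873473 in wt and 1058358 and 962472 in mdx. The mdx/Ripk3mKO libraries, at 973907 and 796329, stood on either side of wt. The median absolute difference of the 87 genes between libraries of a label was 0.37 in mdx/Ripk3mKO, 0.1 in wt and 0.15 in mdx. Library 1 of mdx/Ripk3mKO was above library 2 in 90.8% of them, against 47.8% of all genes. In bulk RNA, more cells of a type and more RNA per cell cannot be told apart. Markers of mature myofibres, which share members with these lists, went with them: 14 of 15 were tested and all 14 were higher, from sums of 257721 to 271952 in wt to 299738 to 317630 in mdx. The part of that cell stage in the result was not tested.

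Of 21 tested genes in the myosin list, 19 were higher in mdx, with a median of 0.37. In the 4-library fit 10 of them were called higher (0.67% of all genes). The list holds heavy and light chains but also other proteins, such as the myosin-binding protein Mybpc1, itself called, so these counts are not of chains alone. The only chains called higher in that fit were Myh8, Myh1, Myl1, Myl4, Myl6b and Mylpf, so several of the called members are not chains. The neonatal heavy chain Myh8 was at 11679 and 12416 in wt and at 21405 and 19054 in mdx, the mdx libraries standing far above the wt libraries. Its difference was 0.75 ± 0.24 with 6 libraries (limma adjusted p = 0.761) and 0.75 ± 0.06 with 4 (limma adjusted p = 0.000151). The adult fast chain Myh1 was at 15341 and 18297 in wt and 25820 and 27921 in mdx (0.68). The embryonic chain Myh3, which had the highest value of the list, was at 128075 and 132937 in wt and 164134 and 145888 in mdx. Its difference was smaller, 0.25 ± 0.18 (limma adjusted p = 0.873). Light chains went the same way: Myl1 was at 11443 and 10902 in wt and 15426 and 14820 in mdx, and Mylpf at 26575 and 24908 against 32662 and 29784. The slow-type myosin-binding protein Mybpc1 was at 6605 and 7737 in wt and 10024 and 10587 in mdx. Heavy chain genes are close in sequence, and no source used here says how reads shared between them were counted.

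Thin filament genes differed less. In this list 18 of 20 were higher, with a median of 0.23 that was 0.14 without mdx library 1, and 4 were called higher with 4 libraries (0.67% of all genes). Tropomodulin 1 (Tmod1), which caps the pointed end of actin filaments, was at 675 and 603 in wt and 1075 and 939 in mdx, clear of each other (0.65 ± 0.17, limma adjusted p = 0.587). Nebulin (Neb), the ruler along the filament, was at 30255 and 34630 in wt and 38827 and 37692 in mdx (0.24 ± 0.08). The slow troponin I Tnni1 was at 8821 and 8242 in wt and 11228 and 10504 in mdx. Skeletal actin Acta1 overlapped between the groups, at 75901 and 66402 in wt and 84259 and 72354 in mdx, as did cardiac actin Actc1 at 48001 and 39888 against 59532 and 44498.

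In the list of Z-disc, titin and membrane-cytoskeleton genes the median was 0.15 over 21 genes, 16 of them higher. Without mdx library 1 it was 0.06, with 14 higher and 6 lower. Alpha-actinin 2 (Actn2), which crosslinks thin filaments at the Z-disc, was at 5639 and 6171 in wt and 8729 and 8648 in mdx, both mdx libraries far above wt (0.56 ± 0.23 with 6 libraries, limma adjusted p = 0.808). Telethonin (Tcap), the titin cap, was at 254 and 333 in wt and 508 and 573 in mdx (0.89 ± 0.28). The M-band is not named in this list, and its protein Myom2 was at 5208 and 5641 in wt and 8016 and 8251 in mdx. Titin itself (Ttn) was at 59249 and 78075 in wt and 75398 and 74717 in mdx, with the mdx values inside the wt range. Desmin (Des), the intermediate filament already present in myoblasts, was at 34273 and 33484 against 36363 and 35039.

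For excitation-contraction coupling 22 of 25 genes were higher, with a median of 0.23, and 8 were higher at an unadjusted p under 0.05 (3.43% of all genes). Calcium release channel Ryr1 was at 6584 and 6616 in wt and 7511 and 7422 in mdx, a small difference with libraries of a group close together (0.18 ± 0.05). The fast calcium pump Atp2a1 was at 9495 and 9207 in wt and 11876 and 11362 in mdx, whereas the more widely expressed Atp2a2 was at 17513 and 17749 against 17429 and 17106. Calsequestrins, which buffer calcium in the store, were both higher: Casq1 was at 448 and 558 in wt and 932 and 1271 in mdx, and Casq2 at 9894 and 10032 against 13840 and 13278. Triadin (Trdn), which anchors calsequestrin to the release channel, was at 552 and 692 in wt and 968 and 1066 in mdx. The voltage sensor Cacna1s was at 1982 and 2051 in wt and 2700 and 2649 in mdx.

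Fuel genes of muscle were also mostly higher. Of 30 genes for glucose transport and glycogen, 25 were higher, with a median of 0.09 that was 0.14 without mdx library 1. Both mdx libraries were above both wt libraries in 13 (17.6% of all genes) and below both in 3 (18.4%). The insulin-responsive transporter Slc2a4 was at 71 and 86 in wt and 132 and 173 in mdx (0.94 ± 0.19, limma adjusted p = 0.264). The muscle glycogen-targeting subunit Ppp1r3a was at 52 and 63 in wt and 116 and 141 in mdx (1.15 ± 0.24, limma adjusted p = 0.322). The glycolysis list was split, 16 higher and 13 lower. Its muscle phosphofructokinase Pfkm was at 2006 and 2108 in wt and 2532 and 2943 in mdx, but the pyruvate kinase Pkm, the last enzyme of glycolysis, was at 55596 and 55756 in wt and 51159 and 52623 in mdx. Muscle creatine kinase Ckm was at 1742 and 1754 in wt and 2631 and 2452 in mdx, and myoglobin (Mb) at 1711 and 1813 against 2387 and 2683.

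Transcripts of the mitochondrial genome were higher in mdx for all 12 genes tested, with a median of 0.16, and 9 had both mdx libraries above both wt libraries (17.6% of all genes). The large ribosomal RNA mt-Rnr2 was at 16843 and 19246 in wt and 20209 and 20610 in mdx (0.18 ± 0.06, limma adjusted p = 0.587). Mitochondrial genes took 4.6% and 4.97% of the scaled counts in wt and 5.05% and 5.12% in mdx. The mdx/Ripk3mKO libraries, at 5.2% and 4.61%, differed from each other by more than the libraries of wt or of mdx. Without wt library 1 the number higher was 10 of 12 and the median 0.08. Of 88 nuclear genes for oxidative phosphorylation 60 were higher, with a median of 0.05 that was 0.02 without mdx library 1, and the muscle isoform Cox6a2 was at 287 and 293 in wt and 490 and 382 in mdx.

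Genes of the dystrophin complex, which spans the muscle membrane, were higher in 19 of 24, with a median of 0.11 that was 0.07 without mdx library 1. Dystrophin itself (Dmd) was at 324 and 432 in wt and 531 and 692 in mdx, with no overlap (0.69 ± 0.33, limma adjusted p = 0.812). The whole-gene value does not check the mdx label, since the mutation need not remove the transcript. Utrophin (Utrn), its close relative, was at 6417 and 6400 in wt and 6847 and 7080 in mdx (0.12 ± 0.05). Caveolin 3 (Cav3), the muscle caveolin, was at 1024 and 1033 in wt and 1443 and 1279 in mdx. At the neuromuscular junction 7 of 14 genes were higher and 7 lower, and the receptor-clustering adaptor Dok7 was at 3346 and 3243 in wt and 3005 and 2948 in mdx.

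The regulators of muscle differentiation lay mostly on the lower side. Of 21 myogenic regulators 6 were higher and 15 lower, with a median of -0.06. Myod1 was at 23226 and 21120 in wt and 19459 and 18636 in mdx, lower in both libraries (-0.22 ± 0.05, limma adjusted p = 0.443). Serum response factor (Srf), which drives actin genes, was at 3109 and 2763 in wt and 2632 and 2511 in mdx. Mef2c, the factor that maintains sarcomere genes, was on the other side at 4863 and 5700 in wt and 7679 and 7865 in mdx (0.56). Myog overlapped between the groups. Among satellite cell genes 11 of 18 were higher, with a median of 0.02, but 7 of 18 without mdx library 2: the growth factor receptor Fgfr4 was at 2468 and 2286 in wt and 2032 and 2222 in mdx, and Notch3 at 2055 and 2066 against 2156 and 2566.

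Notch signalling keeps satellite cells undifferentiated, and its list was uneven, with 9 of 23 genes higher and a median of -0.03. The effector Heyl was at 1186 and 1112 in wt and 1502 and 1697 in mdx (0.47 ± 0.09, limma adjusted p = 0.322). The ligand Jag2 was at 1582 and 1549 in wt and 1343 and 1388 in mdx (-0.20 ± 0.06). Its modifier Lfng was at 604 and 461 in wt and 429 and 395 in mdx.

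Collagens stood second among the lists by their median, 0.29 over 21 genes. Of these 18 were higher, 12 without overlap (17.6% of all genes), and 4 were called higher with 4 libraries (0.67%). Col12a1, which decorates collagen fibrils, was at 1503 and 1561 in wt and 1919 and 2228 in mdx (0.43 ± 0.11, limma adjusted p = 0.557). The basement membrane chains were close behind each other: Col4a1 was at 7276 and 6470 in wt and 8266 and 7765 in mdx, and Col4a2 at 4124 and 3586 against 4588 and 4250. Fibrillar Col1a1 was low, at 40 and 41 in wt and 87 and 96 in mdx, and at 286 and 21 in the mdx/Ripk3mKO libraries. Col6a3 was uneven within mdx, with 151 and 215 in wt and 273 and 632 in mdx. The most abundant chain, Col5a2, was at 12288 and 12462 in wt and 11491 and 11830 in mdx, on the lower side. Connective tissue markers, 5 of 12 of them listed, summed to 5339 to 5381 in wt and 5340 to 5452 in mdx, without Dcn or Lum. Gsn and Scx held most of these sums, and Pdgfra was at 24 and 32 in wt and 29 and 29 in mdx. The part of connective tissue cells in the collagen values was not tested.

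Other matrix genes did not move as a block. Among 27 matrix proteases and inhibitors 19 were higher and 8 lower. The crosslinking enzyme Loxl1 was at 343 and 394 in wt and 500 and 515 in mdx (0.46 ± 0.11, limma adjusted p = 0.386), and the membrane collagenase Mmp14 at 655 and 751 against 825 and 897. The aggrecanase Adamts4 lay on the other side, at 1634 and 1592 in wt and 1369 and 1332 in mdx. Thrombospondin 1 (Thbs1), the most abundant of the matrix linkers, was at 35940 and 34153 in wt and 32098 and 30023 in mdx (-0.17 ± 0.05, limma adjusted p = 0.496).

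Several of the lower genes with small p encode surface molecules, though their lists did not lie lower as a whole. Of 21 integrins, selectins and adhesion molecules 11 were higher and 10 lower, with a median of 0.028, and of 15 proteoglycans 9 were higher and 6 lower, with a median of 0.02. P-selectin (Selp, ENSMUSG00000026580, chromosome 1, 164115264 to 164150026), an adhesion molecule known from endothelium and platelets, was at 301 and 350 in wt and 201 and 216 in mdx. Its difference was -0.64 ± 0.11 (limma adjusted p = 0.204), and both mdx/Ripk3mKO libraries, at 335 and 318, were at the wt level. Of the endothelial markers 4 were tested, 3 of them higher and 1 lower, with the overlapping sums given above, and their part in the Selp values was not tested. The proteoglycan Cspg4 (ENSMUSG00000032911, chromosome 9, 56865033 to 56899870), also called NG2, was at 1773 and 1602 in wt and 1354 and 1185 in mdx (-0.41 ± 0.07, limma adjusted p = 0.204). Pericytes carry NG2 too. Of 10 pericyte and smooth muscle markers, Cspg4 included, 7 were tested, 4 higher and 3 lower. Both mdx libraries were above both wt libraries in 4 (17.6% of all genes) and below both in 1, Cspg4 itself (18.4%). Pdgfrb was at 333 and 309 in wt and 409 and 444 in mdx, and Abcc9 at 697 and 818 against 1008 and 1030. The marker sums, 75244 to 86409 in wt and 73730 to 91156 in mdx, were mostly Acta2 and Des. Acta2 was at 49293 and 38970 in wt and 51960 and 35974 in mdx. The part of these cells in the Cspg4 values was not tested. Syndecan 3 (Sdc3), a heparan sulfate proteoglycan of satellite cells, was at 6054 and 6109 in wt and 4787 and 5073 in mdx (-0.30 ± 0.06). Integrin beta 4 (Itgb4) was at 1876 and 1748 in wt and 1388 and 1501 in mdx. The orphan receptor Adgrg3 was at 446 and 453 in wt and 291 and 345 in mdx.

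The 10 genes called lower with 4 libraries held further Laptm5, a lysosomal membrane protein, at 598 and 579 in wt and 445 and 418 in mdx, and the scavenger receptor family gene Ssc5d at 1214 and 1188 against 993 and 943. Dpysl3, a cytoskeletal regulator of neurites, was at 9214 and 9251 in wt and 7834 and 7674 in mdx. The other two, Gm23935 and Gm26917, are predicted RNA genes: the first was at 427 and 311 in wt and 164 and 189 in mdx, and at 184 and 574 in the mdx/Ripk3mKO libraries. Laptm5 is best known from blood cells. Of 16 macrophage and monocyte markers 5 were listed, with sums of 60 to 78 in wt and 62 to 76 in mdx, and of the 4 tested 2 were higher and 2 lower; their part in the Laptm5 values was not tested.

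Cell division genes differed by little. For DNA replication 9 of 38 genes were higher and 29 lower, but the median was -0.025, and without mdx library 1 there were 19 higher and 19 lower. The ribonucleotide reductase subunit Rrm2 was at 20014 and 20443 in wt and 18316 and 19206 in mdx (-0.11 ± 0.05, limma adjusted p = 0.742). For mitosis 13 of 36 were higher, with a median of -0.015, but 21 of 36 without mdx library 1 and 6 of 36 without mdx library 2. The proliferation marker Mki67 was at 14852 and 15531 in wt and 15928 and 16904 in mdx, higher without overlap (0.11 ± 0.05), and Plk1 was at 2411 and 2289 against 2132 and 2164.

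Growth signals gave a few separate genes. Egr3 (ENSMUSG00000033730, chromosome 14, 70077203 to 70082550), an immediate early factor needed for muscle spindles, was at 48 and 80 in wt and 156 and 148 in mdx. Both mdx libraries were well above wt, and the difference was 1.28 ± 0.22 (limma adjusted p = 0.204). Of 33 immediate early genes, Egr3 included, 17 were higher, with a median of 0.01, and 13 without mdx library 1. Both mdx libraries were above both wt libraries in 9 of them (17.6% of all genes) and below both in 1 (18.4%). At an unadjusted p under 0.05, 4 were higher (3.43% of all genes) and none lower (3.03%). Fos was at 98 and 115 in wt and 153 and 136 in mdx. Igf1, the growth factor that enlarges myotubes, was at 333 and 324 in wt and 561 and 442 in mdx (0.60 ± 0.15, limma adjusted p = 0.481). Of 26 imprinted genes 21 were higher, with a median of 0.11 that was 0.21 without wt library 2, Cdkn1c among them. H19 and Igf2, its neighbours in the imprinted cluster, overlapped between the groups, H19 at 183801 and 163398 in wt and 193965 and 165814 in mdx. Wnt receptor Fzd4 was at 526 and 517 in wt and 648 and 658 in mdx (0.32 ± 0.08), and BMP mediator Smad9 at 399 and 430 against 309 and 333. In the FGF list, the decoy receptor Fgfrl1 was at 581 and 658 in wt and 707 and 820 in mdx.

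Sterol and fatty acid synthesis was the list farthest to the lower side. These enzymes and their SREBP regulators supply membranes and respond together to cell sterol. Of 30 tested genes 26 were lower in mdx and 4 higher, with a median of -0.10. Both mdx libraries were below both wt libraries in 16 (18.4% of all genes) and above both in none (17.6%). No gene of the list passed in either fit, close to the shares of all genes (0.00721% with 6 libraries, 0.67% higher and 0.0721% lower with 4). At an unadjusted p under 0.05, 7 were lower (3.03% of all genes). Fatty acid synthase (Fasn) was at 10097 and 9714 in wt and 8465 and 8745 in mdx (-0.20 ± 0.06, limma adjusted p = 0.465). Hmgcs1, which makes the precursor of mevalonate, was at 4451 and 4156 in wt and 4083 and 3674 in mdx. The list's wt libraries differed in the same range, by 0.11, and the number lower was 21 without wt library 1 and 29 without wt library 2. Its median lay between -0.18 and -0.05 over the alternatives run.

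Lists of death and stress pathways had medians near 0. Of 27 necroptosis and death receptor genes 13 were higher and 14 lower, with a median of -0.001. None was called in either fit, close to the shares of all genes (0.00721% with 6 libraries, 0.67% higher and 0.0721% lower with 4). Ripk3, the kinase that triggers necroptosis, was at 45 and 32 in wt and 23 and 36 in mdx (-0.39 ± 0.35, limma adjusted p = 0.883). The TNF receptor Tnfrsf1b was at 759 and 733 in wt and 646 and 660 in mdx (-0.19 ± 0.07). BCL2 family and caspase genes were split 13 to 13, with Bax at 1468 and 1442 in wt and 1312 and 1339 in mdx. Medians of the interferon, NF-kappaB, p53, Nrf2 and Atf4 lists lay between -0.011 and 0.018. Heme oxygenase Hmox1 was at 4556 and 4565 in wt and 3931 and 4240 in mdx (-0.16 ± 0.05, limma adjusted p = 0.587). Of 15 subunits of the NuRD chromatin complex 12 were lower, with a median of -0.08 that was -0.04 without wt library 1, but its remodeller Chd4 was at 15439 and 15092 in wt and 15161 and 15017 in mdx (-0.02 ± 0.05).

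**Figure D5:**
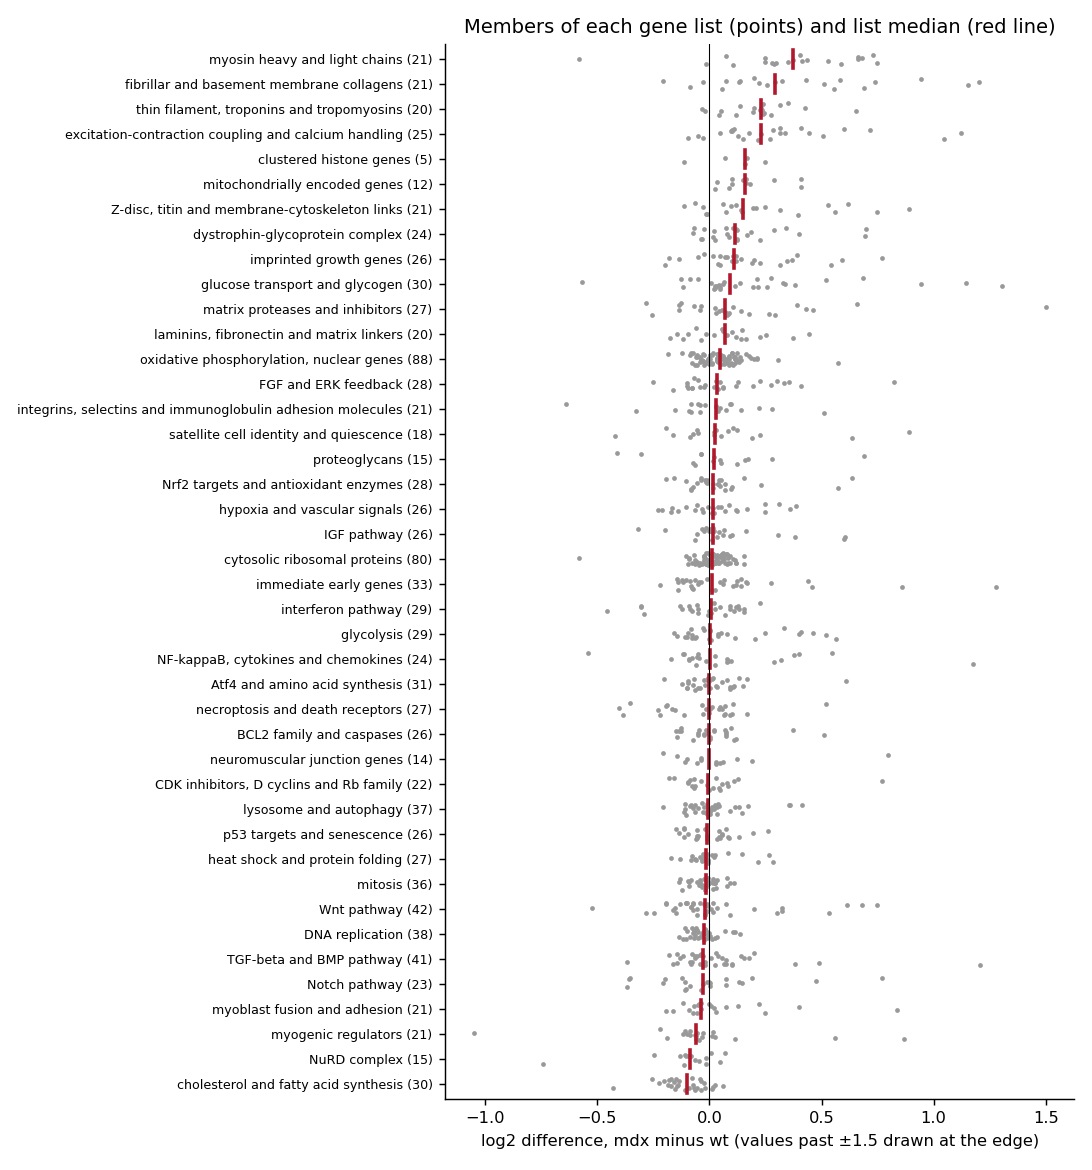
Log2 difference of mdx minus wt (x axis) for the tested members (points) of 42 gene lists, with the number tested in brackets and the median as a red line. Myosins, collagens, thin filament and calcium-handling genes have the highest medians, from 0.37 to 0.23, and sterol and fatty acid synthesis the lowest, -0.10. Most other medians lie close to 0.

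Differences also went with the composition of transcripts. Protein-coding genes were put into 4 equal bins by transcript GC content. Those in the lowest bin were higher in mdx in 59.2% of cases, with a median of 0.018, and those in the highest bin in 36.9%, with a median of -0.041. Long intergenic RNAs were higher in 63.8% of 326 genes, with a median of 0.104. In the lowest bin 14 of 3070 genes were called higher with 4 libraries, and in the highest 24 of 3068 (0.67% of all genes). The bins between held 21 and 33. Called lower were 0 in the lowest bin and 5 in the highest (0.0721% of all genes). With each library corrected for GC content and transcript length, 101 genes were called with 4 libraries. The part of GC content in single lists was not tested beyond that correction.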

How the data were processed

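RNA of 6 libraries, 2 per label, was sequenced, and the deposited table gives 1 value per gene and library. Per the submitters' processing notes, the tools were STAR 2.6.1d, Trimmomatic 0.36, DESeq2 1.18.1 and featureCounts 1.6.3, with the mm10 build; their order is not stated. The deposited values are whole numbers with nearly equal totals, and they were read as counts that the authors scaled and rounded: a score, not raw counts, so no count model was run. No source used here says whether counting used strand.

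From these, log2(scaled count + 1) was tested with limma 3.58.1 and statmod 1.5.0 in R 4.3.3 over all 6 libraries, with genotype as the term, a mean-variance trend, robust fitting, 3 residual degrees of freedom and Benjamini-Hochberg adjustment over 13878 genes at 0.05. Errors are moderated standard errors. Fold differences of low genes are understated on this scale. The fit was tested on simulated data. Alternatives changed the libraries, trend, robust fitting, pseudocount, filter and scaling; the GC correction and the alternatives to the 4-library fit were added after seeing the data. Genes, lists and tests were chosen with earlier results of these data known. Named genes are the 12 per direction with the smallest p and the 8 with the largest difference (mean of at least 100, no overlap, symbol not a predicted, clone or RIKEN name), up to 6 per list, and Ripk3 and Dmd; others that are given, such as Myh1, Mef2c, Gm10800 and Gm23935, were chosen after their values were seen. Not every gene the rule selects is described, and some are not reported here. Promoters matched 10002 genes by symbol.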

Additional observations from a re-analysis of the deposited data

How the results depend on the processing

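The 6-library count of 1 fell to 0 without robust fitting and without any of the wt or mdx libraries (unadjusted p under 0.05 in 534 to 949 genes), and was 102 and 103 without mdx/Ripk3mKO library 1 or library 2 and 103 with the 4 wt and mdx libraries, where the mdx/Ripk3mKO group has no residual degree of freedom left. Over the libraries left out it ranged from 0 to 103. Without the trend it stayed at 1, but the gene was Cpne9, at 2 and 2 in wt and 14 and 13 in mdx, and not Cdkn1c. The Cdkn1c difference was 0.768 without the trend and without robust fitting and no longer passed, and it ranged from 0.697 to 0.838 over the libraries left out. The 4-library count of 103 was 0 without the trend, 59 without robust fitting and 0 to 243 over the libraries left out. With other pseudocounts, filters and scalings it lay between 101 and 134. The cause of these changes was not tested.

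Of 91 genes followed, the difference of 30 moved by over 1.5 times when 1 library was left out, and 5 changed sign when a library was left out: Myog ranged from -0.273 to 0.074, Pax7 from -0.062 to 0.165, Cdkn1a from -0.08 to 0.059, Ttn from -0.057 to 0.341 and H19 from -0.064 to 0.163. H19 was also at 0.0 after quantile normalization, and Ttn at -0.013 with the GC and length correction. Medians of 22 of 42 lists changed sign under at least 1 alternative. No paired analysis was possible because the mdx columns carry no replicate number of their own, so the replicate block was not run. With 2 libraries per group the precision is set by the difference between libraries of a group, at the median 0.104 for wt and 0.103 for mdx; it was 0.312 and 0.322 in the lowest of 4 bins by level.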
